A study of Mus musculus with 371 samples.

Results

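The cells described here are CD4 T cells of B16F10 tumours with little or no Foxp3, the gene of the transcription factor that defines regulatory T cells. They were chosen by measured values: the cell came from the CD4 sort, it had 1000 or more detected genes (1 FPKM or above), and its Foxp3 value was under 1 FPKM. FPKM is a level per transcript length and library depth. The CD4 sort held 94 wild-type cells and 93 cells labelled Il27ra knockout, of which 85 and 89 had enough genes, and 39 and 54 were members. The 93 members were 53.4% of the CD4 cells kept and 25.1% of all cells in the series. The split at 1 FPKM was wide: 92 members had Foxp3 at 0 and 1 had 0.67 FPKM, and the lowest value outside was 9.65 FPKM, against a median of 558.77 FPKM among the cells left out. The 13 cells of the CD4 sort with too few genes had at most 963, and the member with the fewest had 1006.

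Conventional CD4 T cells leave the thymus naive, circulate through lymph nodes with the homing receptor CCR7, and become helper cells after the T cell receptor is engaged. Helper lineages are told apart by factors such as T-bet, GATA3 and BCL6 and by the cytokines they secrete. IL-27 signals through the receptor chain encoded by Il27ra and gp130 to JAK kinases and STAT factors such as STAT3, and SOCS3 is a feedback inhibitor that STAT3 induces.

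All cells were from C57BL/6 mice bearing the B16F10 melanoma, a transplantable mouse tumour line, and were profiled by Smart-seq2, a full-length single-cell method. The comparison asked what differs in T cells inside the tumour without the IL-27 receptor. The wild-type (WT) members were 39 of 85 cells kept, all from 1 pool titled cat, and the members labelled Il27ra knockout (KO) were 54 of 89 cells kept, all from 1 pool titled rabbit. The names cat and rabbit were read here as pools, and the labels do not say what they stand for. Both carried the number 3 beside the genotype and p2 at the end of the title. The labels name no animals, give no age, and describe the isolation for CD8 T cells only. Each genotype was therefore treated as 1 sample, pool and genotype cannot be told apart, and no test between them was made. A spread below is the SD over the cells of 1 pool. Each interval given with a share is a 95% interval by the exact Clopper-Pearson method and covers only the error of counting.

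Il27ra (mm10, chromosome 8, 84030294 to 84042589, minus strand) reached 1 FPKM, the level called found below, in 18 of 39 WT members (46.2%, 30.1% to 62.8%) and in 23 of 54 members labelled KO (42.6%, 29.2% to 56.8%). Because a gene has a single value over all its exons, reads from outside a deleted part would be counted, and the labels could not be checked with it. The difference in mean log2(FPKM + 1), labelled KO minus WT, was -0.41 over all members and 2.84 in the 6 WT cells and 16 cells labelled KO with at least 2000 genes.

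The members had a median of 1547 detected genes in WT (1006 to 3121) and 1746.5 in cells labelled KO (1061 to 3419). Cells labelled KO thus had more genes per cell, and the median difference of all genes, labelled KO minus WT, was 0.21 on the log2 scale. No pair of members was a copy, with correlations of at most 0.545.

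The sort held for most members. Cd4, the co-receptor that defines the lineage, was found in 34 of 39 WT members (87.2%, 72.6% to 95.7%) and 45 of 54 members labelled KO (83.3%, 70.7% to 92.1%), and Cd8a in 2 of 93. Cd4 was not read in 14 members. The remaining markers given for this population were less general: Cd40lg, the ligand by which helper cells license B cells and dendritic cells, was found in 39.8% of all members, the nuclear receptor gene Rora in 38.7%, and the immediate early gene Egr1 in 47.3%. At least 1 of these 4 markers was found in 89 of 93 members, at least 2 in 61 and at least 3 in 33. Of those 33, 8 were WT and 25 were labelled KO. Cells with at least 3 had a median of 1760 detected genes, and the others 1536.5. Joint detection of 3 or more markers thus described a minority of the cells the rule selects.

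Other genes of regulatory T cells were looked for in the members. At least 3 of 9 genes (Il2ra, Ikzf2, Ctla4, Tnfrsf18, Tnfrsf4, Nrp1, Lrrc32, Gpr83 and Ikzf4) were found in 8 of 39 WT members and 15 of 54 members labelled KO, and none of them in 20 members. Of the 9, Ikzf2, which encodes Helios, was found in 8 members, Il2ra in 8, Lrrc32 in 2 and Gpr83 in 2. The glucocorticoid-induced receptor gene Tnfrsf18 was found in 46 and Ctla4 in 40, and activated helper cells also express both. Whether the members with at least 3 of the 9 genes were regulatory T cells was not tested. At least 2 markers of 1 other cell type at 10 FPKM or above were found in 5 WT members and 8 members labelled KO, mostly myeloid (7 cells) or dendritic and MHC class II genes (4 cells). The summed level of the 14 myeloid genes ran from 0 to 6684.56 FPKM in WT cells and from 0 to 14178.2 FPKM in cells labelled KO, with a median of 0 in both, and 6 and 5 of the genes reached 10 FPKM in no cell. The 12 dendritic and MHC class II genes summed to medians of 0.53 and 0.605 FPKM. Their highest sums were 127879 FPKM in a WT cell and 50870.6 FPKM in a cell labelled KO. Without the cells with other markers the Socs3 and S100a10 differences described below were -4.86 and 4.85, and without the cells with 3 or more regulatory T cell genes they were -4.64 and 3.52.

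Clustering the 93 members gave 3 clusters, of 44, 32 and 17 cells. The first was led by the chemokine receptor gene Cxcr6, the calcium-binding and membrane genes S100a4, S100a11, Anxa2 and Lgals1, the transcription factor gene Bhlhe40, and Ndfip1 and Prr13. Among the leading genes of the second were Ccr7, Socs3, Tcf7, Lef1, Rnf167, Klhl6 and Eef1g, and it is called naive-like from Ccr7 and from the T cell factor genes Tcf7 and Lef1. The third was led by Tufm, Psmc3, Psmb5, Snrpb, Tgtp2, Atp5b, Ramp3 and Tmem9b, mostly genes of mitochondria, proteasome and splicing, and has no name. These genes define the clusters and are a description. The first principal component followed the number of detected genes (Pearson r of 0.93 over 93 cells that share libraries and depth), and the median cell had 1888 genes in the first cluster, 1453.5 in the second and 1667 in the third. Another resolution, number of genes or number of components gave 2 to 7 clusters. The largest group of the Cxcr6 cluster that stayed together was 44 of 44 cells at resolution 0.5, in a cluster of 58. It was 36 of 44 with 1000 variable genes, 29 of 44 at resolution 1.5 and 21 of 44 with 10 components.

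The naive-like cells and the Cxcr6 cells kept largely apart. Ccr7 was found in 29 members, Cxcr6 in 34, and both in 2 of 93 cells, while 32 cells had neither. Ccr7 was found in 18 of 32 cells of the naive-like cluster and in 6 of 44 of the Cxcr6 cluster. Igfbp4, a gene of naive CD4 cells, was found in 9 cells of the naive-like cluster and in none of the others. Bcl2, which encodes a survival factor of resting cells, was found in 15 of 32 naive-like cells, 6 of 44 Cxcr6 cells and 5 of 17 cells of the third cluster.

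The other pole was an effector and tissue pattern. S100a4 was found in 23 of 44 Cxcr6 cells and in none of 32 naive-like cells, which allows a share of up to 9.38% (3 cells of 32, the limit used here for a count of 0). Anxa2 was found in 31 and 4 cells, Lgals1, which encodes galectin-1, in 39 and 9, and the integrin gene Itgb1 in 29 and 7. A list's level in a cell is log2(FPKM + 1) averaged over its measured genes, those found in 20% or more of either pool (14 of 16 S100 and migration genes, 13 of 20 naive-like genes and 16 of 20 type 1 genes). The S100 and migration list had a median level of 5.76 in the Cxcr6 cluster (2.53 to 9.31), 2.22 in the naive-like cluster (0.19 to 6.14) and 3.98 in the third (1.65 to 6.30). The naive-like list ran the other way, with medians of 2.15 (0 to 4.85), 4.18 (0 to 7.57) and 3.15 (1.32 to 6.98). The name naive-like thus holds for the cluster and not for each of its cells. S100a4, S100a11, Anxa2 and Lgals1 are on the S100 list, and Ccr7, Tcf7 and Lef1 on the naive-like list. These genes lead the clusters, so both contrasts were partly built in. The levels of both lists correlated weakly across the 93 cells (Pearson r of -0.28), and the S100 list also followed the number of detected genes (r of 0.67).

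**Figure D1:**
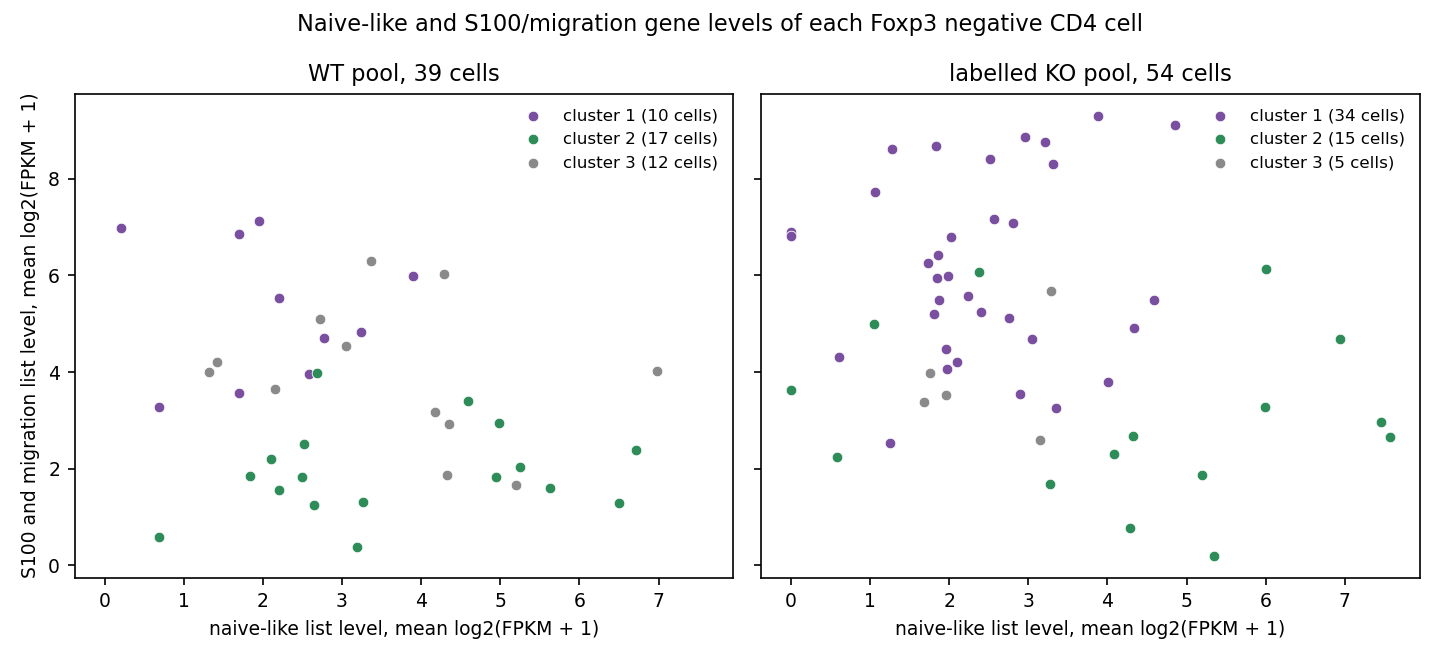
Each point is 1 cell. The x axis is the mean log2(FPKM + 1) over the measured naive-like genes, the y axis that over the measured S100 and migration genes, and colours mark the clusters, for the WT pool (left, 39 cells) and the pool labelled KO (right, 54 cells). Cluster 2 cells lie low on the y axis, with a median of 2.22, and cluster 1 cells high, with a median of 5.76.

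Helper lineage factors were spread thinly over these states. Gata3, the factor of type 2 helper cells that all CD4 cells need in development, was found in 41 of 93 members (44.1%, 33.8% to 54.8%) and Tbx21, which encodes T-bet of type 1 helper cells, in 18 (19.4%, 11.9% to 28.9%). Bcl6, the factor of follicular helper cells, was found in 5 members. At least 1 of these 3 factors was found in 54 members and at least 2 in 9, of which 7 had Tbx21 with Gata3. Tbx21 was found in 12 of 44 Cxcr6 cells and in 2 of 32 naive-like cells.

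Genes that accompany type 1 cells were the common ones. Bhlhe40, a factor that supports cytokine production by helper cells, was found in 36 of 44 Cxcr6 cells and 2 of 32 naive-like cells, and the chemokine gene Ccl5 in 21 and 2. Cxcr3, a receptor for interferon-induced chemokines, was found in 24 and 6, and Nkg7, a granule gene, in 21 and 4. The type 1 list as a whole had a median level of 4.27 in the Cxcr6 cluster, 1.15 in the naive-like cluster and 2.67 in the third. Cxcr6 and Bhlhe40 are on this list and lead the Cxcr6 cluster, so this order was partly built in. Rora was found in 26, 2 and 8 cells of the clusters in order. Ccr8, a chemokine receptor of type 2 and tumour regulatory cells, was found in 14, 1 and 2.

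Cytokine transcripts were rare. At least 1 of Ifng, Il2, Il4, Il17a, Il21 and Tnf was found in 21 of 93 members. Tnf, which encodes tumour necrosis factor, was found in 10, Ifng, the type 1 cytokine, in 8, Il2 in 4, Il4 in 2, Il17a in 1, Il21 in 1 and Il10 in 2. Il5, Il9, Il22 and Il3 were at 0 in every member. Of the 10 cells with Tnf, 9 lay in the Cxcr6 cluster, as did 7 of the 8 cells with Ifng.

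Transcripts of the T cell receptor response were found in all states and most often in the Cxcr6 cluster. Junb, an AP-1 subunit, was found in 90 of 93 members, and Tnfaip3, which encodes the NF-κB inhibitor A20, in 84. Nfkbid, which encodes a nuclear regulator of NF-κB, was found in 33 of 44 Cxcr6 cells, 6 of 32 naive-like cells and 7 of 17 cells of the third cluster. Egr1 was found in 28, 7 and 9 cells, and the early activation antigen Cd69 in 29, 12 and 9. The 44 cells with Egr1 had a median of 15.5 of the 30 other genes of the activated list, and the 49 cells without it 11, at medians of 1734 and 1601 detected genes. The activated and naive-like list levels were nearly unrelated across cells (r of 0.01).

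Receptors of activated and chronically stimulated cells followed the same order. Tigit, a co-inhibitory receptor, was found in 29 of 44 Cxcr6 cells and 7 of 32 naive-like cells, Ctla4 in 25 and 7, Pdcd1, which encodes PD-1, in 18 and 4, and the co-stimulatory receptor gene Tnfrsf4 in 21 and 1. Icos, a co-stimulatory receptor of the CD28 family, was broad, in 37 and 18 cells and in 15 of 17 cells of the third cluster. At least 1 of Pdcd1, Havcr2, Lag3 and Tigit was found in 56 members and at least 2 in 22, and Havcr2 and Lag3 were in 5 and 4 members.

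**Figure D2:**
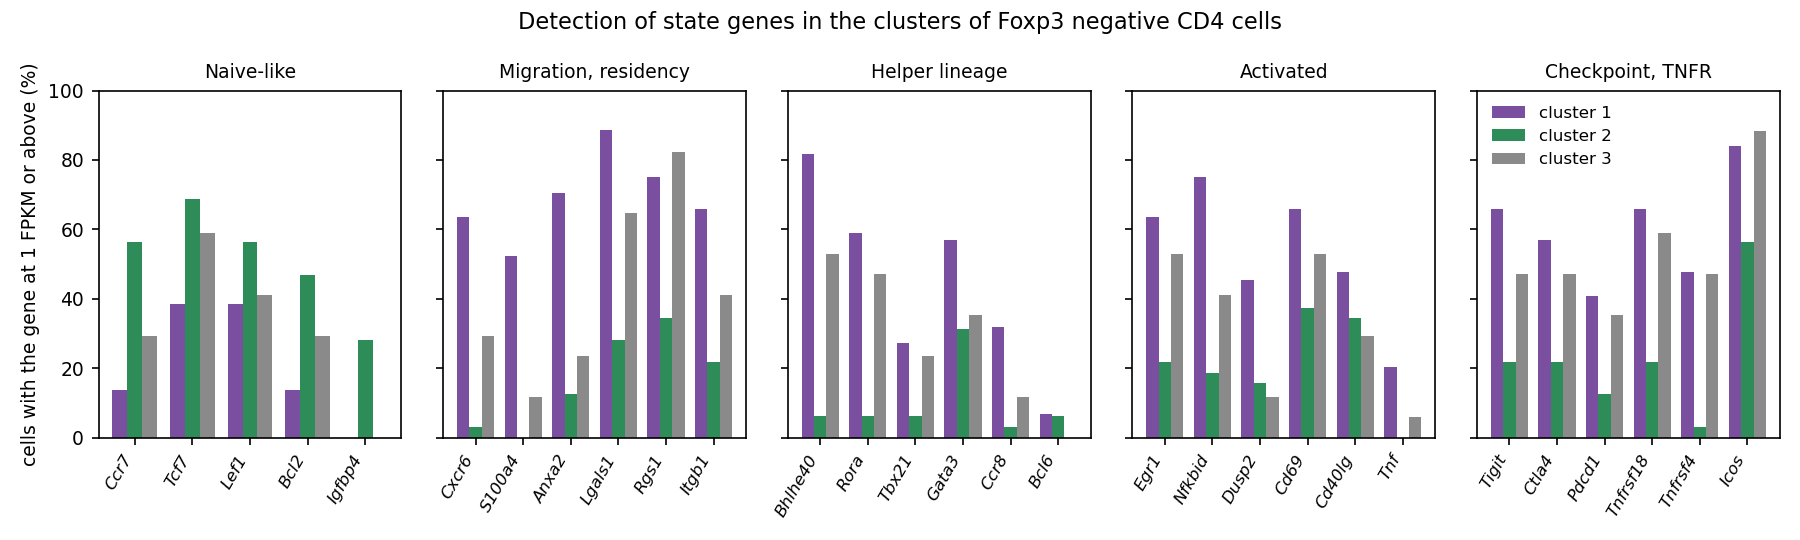
Bars give the percentage of cells of each cluster (44, 32 and 17 cells) with a gene at 1 FPKM or above, for genes grouped by role. Ccr7 and Tcf7 stand highest in cluster 2, at 56.2% and 68.8% of its cells, and Cxcr6 and Bhlhe40 in cluster 1, at 63.6% and 81.8%.

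Cells labelled KO and WT cells were not spread evenly over the clusters. The Cxcr6 cluster held 34 of 54 cells labelled KO (63%, 48.7% to 75.7%) and 10 of 39 WT cells (25.6%, 13% to 42.1%). The naive-like cluster held 15 cells labelled KO (27.8%, 16.5% to 41.6%) and 17 WT cells (43.6%, 27.8% to 60.4%), and the third held 5 and 12. Genes that define the clusters also differ between the pools, and a cluster mostly of 1 pool may reflect that pool, so these shares describe the libraries. With markers alone, Cxcr6 was found in 7 WT cells and 27 cells labelled KO, and Ccr7 in 15 and 14. In 1 of the 10 WT cells of the Cxcr6 cluster, with 2783 detected genes, none of 12 T cell identity genes was found. Its level of the myeloid list, of which 1 gene was measured, was 12.2, the highest of all members. The differences inside the Cxcr6 cluster given below include this cell.

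For the comparison of the pools, log2(FPKM + 1) of each gene was averaged over the cells of a pool, and 3426 genes found in 20% or more of either pool were measured. Of these, 13.5% were higher by 1 or more in cells labelled KO and 3.15% were lower by 1 or more. With cells weighted so that 3 classes of detected gene number counted equally in both pools, the shares were 7.30% and 7.03%. With the 3 clusters given equal weight in both pools they were 10.5% and 7.24%. The excess of higher genes was thus smaller at equal gene numbers and at an equal mix of states. Lists are given below with their values inside the Cxcr6 and naive-like clusters. Among genes measured in the Cxcr6 cluster 16.1% were higher, 19.2% were lower, and the median difference was -0.17. In the naive-like cluster these values were 19.7%, 11.5% and 0.16. Inside a cluster, a gene was measured if found in 20% or more of either pool's cells there. The Cxcr6 cluster has only 10 WT cells, so genes found in few of them enter its lists through that pool. The third cluster held only 5 cells labelled KO, and differences inside it are not given.

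The gene with the lowest difference was Socs3 (mm10, chromosome 11, 117966079 to 117970047, minus strand). Its values ran from 0 to 2531.69 FPKM in WT cells with a median of 326.8, and from 0 to 1043.88 FPKM in cells labelled KO with a median of 0. The WT pool had 32 of 39 cells with Socs3 (82.1%, 66.5% to 92.5%), and the pool labelled KO had 19 of 54 (35.2%, 22.7% to 49.4%). Most WT cells were high, most cells labelled KO were at 0, and the pools overlapped in both directions. The mean of log2(FPKM + 1) was 7.09 ± 3.54 (SD over 39 cells) and 2.57 ± 3.71 (SD over 54 cells), a difference of -4.53. Inside the Cxcr6 cluster the difference was -3.60 (7 of 10 against 11 of 34 cells), and inside the naive-like cluster it was -4.21 (16 of 17 against 8 of 15 cells). In the third cluster 9 of 12 WT cells had Socs3 and none of 5 labelled KO did.

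The next gene was Tgtp2, an interferon-inducible GTPase gene, with a difference of -2.57. It reached 1918.09 FPKM among the 19 of 39 WT cells that had it and 1203.47 FPKM among the 11 of 54 labelled KO, with a median of 0 in both pools. Tgtp2 has a near-identical neighbour, Tgtp1 (-0.75), so the split of reads between them is uncertain. Igtp, another GTPase gene of this family, had medians of 13.3 FPKM in WT (21 cells with it) and 0 in cells labelled KO (18 with it), and differed by -1.71. Irf7, the interferon regulatory factor that amplifies type I interferon, was found in 18 and 13 cells and differed by -1.81. Inside the naive-like cluster the differences were -0.64 for Tgtp2, -2.31 for Igtp and -1.36 for Irf7.

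The promoters of Socs3, Tgtp2 and Igtp are shown because each carries a letter match to the STAT dimer site. RefSeq gives 250 bases before the start site (GRCm38.p6, 5′ to 3′ along the gene), at chr11:117969367-117969616 (minus strand) for Socs3, chr11:49064213-49064462 (minus) for Tgtp2 and chr11:58199306-58199555 (plus) for Igtp. Capitals mark TTCNNNGAA, the STAT site, and GAAANNGAA, the core of the interferon response element, searched on both strands.
Socs3: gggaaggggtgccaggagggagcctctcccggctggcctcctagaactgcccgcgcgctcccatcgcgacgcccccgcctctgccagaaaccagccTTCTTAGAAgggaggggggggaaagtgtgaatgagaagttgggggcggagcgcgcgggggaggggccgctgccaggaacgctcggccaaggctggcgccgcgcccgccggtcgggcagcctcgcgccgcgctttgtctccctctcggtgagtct
Tgtp2: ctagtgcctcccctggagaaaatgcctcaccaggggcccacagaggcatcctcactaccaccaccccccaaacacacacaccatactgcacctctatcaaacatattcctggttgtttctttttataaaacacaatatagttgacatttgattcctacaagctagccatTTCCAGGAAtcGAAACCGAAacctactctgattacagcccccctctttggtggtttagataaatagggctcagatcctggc
Igtp: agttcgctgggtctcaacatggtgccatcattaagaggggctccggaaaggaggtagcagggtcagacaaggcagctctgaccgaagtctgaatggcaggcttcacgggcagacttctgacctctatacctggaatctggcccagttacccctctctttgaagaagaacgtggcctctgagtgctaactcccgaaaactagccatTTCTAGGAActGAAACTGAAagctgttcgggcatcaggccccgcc
In Tgtp2 and Igtp the STAT match and the interferon match stand next to each other, 2 bases apart and without overlap. Socs3 has no interferon match. GENCODE annotates no exon in the Tgtp2 and Igtp windows. In the Socs3 window it annotates 1 exon (117969375 to 117969451) of a transcript with no coding part, outside the match, and the nearest coding transcript starts 181 bases away.

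In windows of 300 bases (250 before and 50 after the start), the STAT letters were found in 3 of the 12 lowest genes, all of which had an entry, and in none of 7 of the 12 highest genes that had one. Among 32851 promoters they were found in 8.30%. The interferon core was found in 2 of 12 and 0 of 7, against 8.56% of all promoters. Of 19 measured interferon-stimulated genes with an entry, 8 had the STAT letters and 7 the interferon core. The EGR letters GCGGGGGCG were found in Socs3, Fkbp8 and Yme1l1 of the lowest genes and in 2.91% of all promoters, and the cyclic AMP response letters TGACGTCA in Zap70 of the highest genes and in 1.79%. A match describes letters, not binding.

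The remaining lowest genes had smaller differences. Bcl2 differed by -2.10 (17 of 39 against 9 of 54 cells). Odc1, the first enzyme of polyamine synthesis (-1.85), the mitochondrial chaperone gene Fkbp8 (-1.81), Dld, a subunit of mitochondrial dehydrogenases (-1.79), the mitochondrial protease gene Yme1l1 (-1.78), the replication helicase gene Mcm7 (-1.62), Mybbp1a (-1.53) and the phosphatase gene Ppm1h (-1.49) completed the 12. All but Ppm1h (0.061) were also below 0 inside the Cxcr6 cluster, and all 12 were below 0 inside the naive-like cluster. The 12 were chosen over all members, which include these cells, so a shared sign was partly fixed by the choice.

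**Figure D3:**
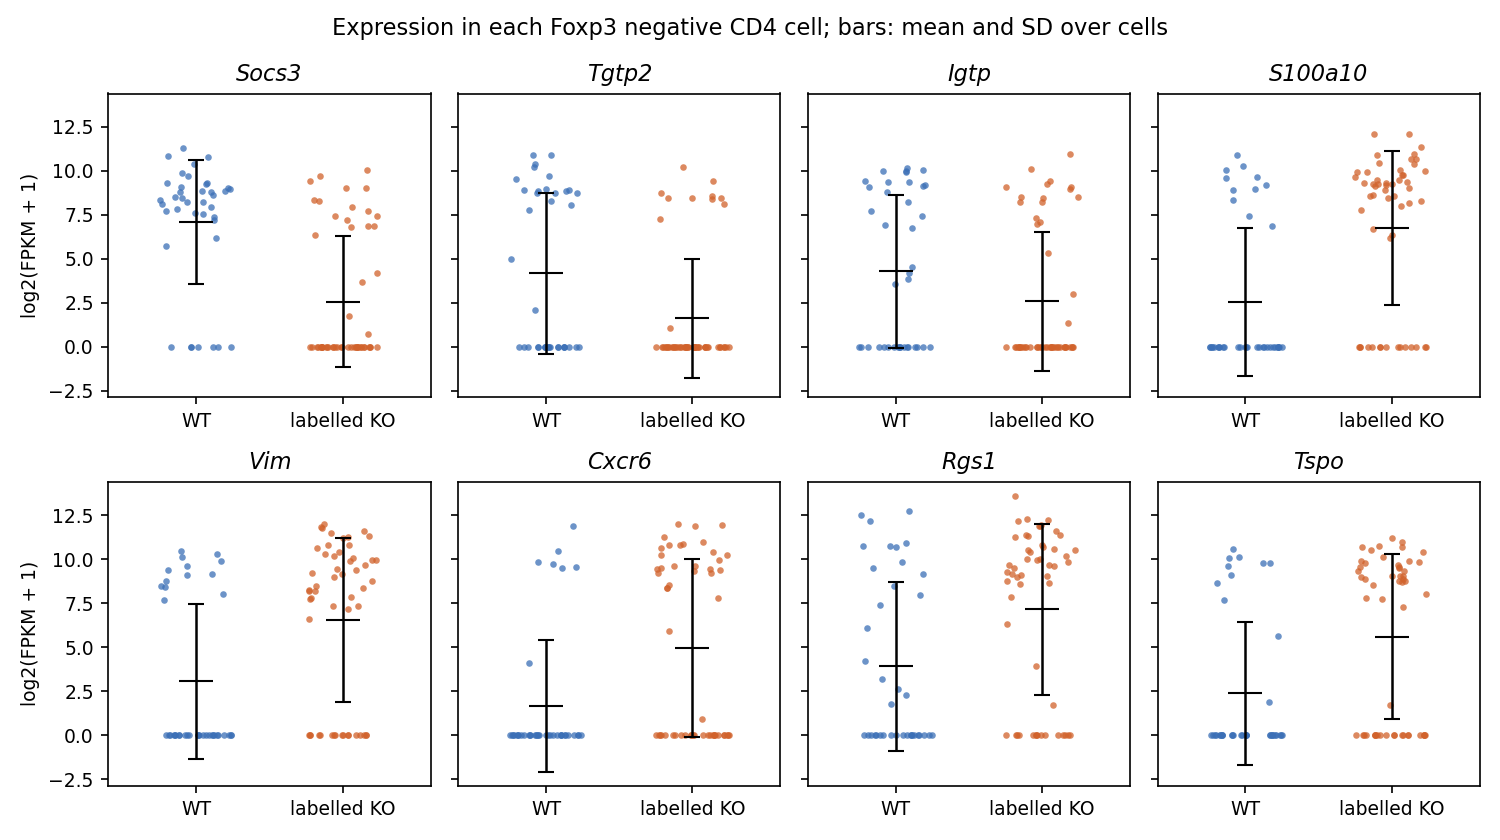
Each point is 1 cell, the y axis is log2(FPKM + 1), and black bars give the mean and SD over cells for 39 WT cells and 54 cells labelled KO. Socs3 is above 0 in most WT cells (32 at 1 FPKM or above) and in 19 cells labelled KO, and S100a10 shows the opposite, with 11 and 39 cells.

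Genes of the IL-27 receptor pathway leaned low over all members, but not in every setting. Of 12 genes on the list of the IL-27 receptor pathway, 10 were measured, none was higher by 1 or more and 3 were lower, among them Socs3 and the signal transducer gene Stat3 (-1.31, 25 of 39 against 30 of 54 cells). The median difference was -0.39, against 0.21 for all genes, of which 13.5% were higher and 3.15% lower. Inside the Cxcr6 cluster the list's median was -1.22, and that of all genes -0.17. There 10 of the 12 genes were below 0, 8 were lower by 1 or more and none was higher, against 19.2% and 16.1% of all genes. Inside the naive-like cluster the list's median was -0.25, with 8 of 11 below 0 and 2 lower, where 11.5% of all genes were lower. In cells with at least 2000 genes the list's median was 0.32, and without the cells with markers of another type it was 0.0069. It was -0.072 with the clusters at equal weight. Of the 13 settings chosen at the outset, 11 gave a median below 0. Without the 2 cells with the most interferon-stimulated genes the list's median was -0.90 inside the Cxcr6 cluster. Stat5a (-0.52), the feedback inhibitor gene Socs1 (-0.37) and Il27ra itself (-0.41) were between -1 and 0, while Jak1 (0.41), Stat5b (0.52) and Tyk2 (0.82) were above 0. Il6st, which encodes gp130, was found in 7 WT cells and 4 cells labelled KO and was not measured. Among 12 measured regulators linked to IL-27, the median was -0.33, with 3 higher (Icos 1.84, Bhlhe40 1.54 and Ikzf3 1.24) and 3 lower, Socs3 and Stat3 again among them. That median was 0.14 without the cells with markers of another type and 0.37 in cells with at least 2000 genes. Inside the Cxcr6 cluster it was -1.09 with 8 of 14 lower (-0.83 with 5 lower without those 2 cells), and inside the naive-like cluster -0.46 with all 8 measured below 0. Maf, a factor of IL-10 production, differed by 0.66. Il10 was found in 1 cell of each pool, and Prdm1, which encodes Blimp-1, in 3 WT cells and 8 labelled KO.

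Interferon-stimulated genes leaned low in their means over cells, while the level of the median cell was alike in both pools. Of 29 measured, 18 were below 0, 7 were lower by 1 or more and 1 was higher, against 3.15% and 13.5% of all genes, and the median was -0.26. The level of this list in a cell had a median of 2.93 in WT cells and 2.94 in cells labelled KO. Among the genes found in at least 50% of either pool the median difference was 0.33. Beside Tgtp2, Irf7 and Igtp, the lower genes included the guanylate-binding protein genes Gbp4 (-1.40) and Gbp6 (-1.19), and Irf9 (-1.07). The antigen presentation genes on the list were not lower: the immunoproteasome gene Psmb9 differed by 1.17, the peptide transporter gene Tap1 by 0.58 and Psmb8 by 0.33. Inside the naive-like cluster the median was -0.30 with 8 of 27 lower, where 11.5% of 3325 genes were lower. Inside the Cxcr6 cluster it was -0.95 with 20 of 42 lower, where 19.2% of 5011 genes were lower and 16.1% higher. That value leaned on few cells. In 1 WT cell of this cluster 39 interferon-stimulated genes were found, and in 1 cell labelled KO 34, against medians of 12 and 13 in their pools. Without these 2 cells the median in the cluster was -0.52, with 11 of 35 lower, and over all members it was -0.25.

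The gene with the highest difference was S100a10 (mm10, chromosome 3, 93555080 to 93564643, plus strand), which encodes a partner of annexin A2. Its values ran from 0 to 1926.93 FPKM in WT cells with a median of 0, and from 0 to 4386.66 FPKM in cells labelled KO with a median of 499. S100a10 was present in 11 of 39 cells of the WT pool (28.2%, 15% to 44.9%) and 39 of 54 of the pool labelled KO (72.2%, 58.4% to 83.5%). Most WT cells were at 0, and the pools overlapped at the top. The mean of log2(FPKM + 1) was 2.57 ± 4.20 (SD over 39 cells) and 6.76 ± 4.38 (SD over 54 cells), a difference of 4.19. It was 4.49 inside the Cxcr6 cluster and 3.22 inside the naive-like cluster.

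The S100 and migration list had the largest median of the lists named in this text, 1.68. Of its 14 measured genes, 11 were higher by 1 or more and none was lower, against 13.5% and 3.15% of all genes. Vim, the intermediate filament vimentin (3.49, 13 of 39 against 37 of 54 cells), Lgals1 (2.98, 17 against 42), Crip1 (2.32, 18 against 35) and S100a4 (2.16, 5 against 20) followed S100a10. Klf6 (-0.89), Tagln2 (-0.24) and S100a13 (-0.05) were below 0. Inside the Cxcr6 cluster the median was 0.87 with 7 of 16 higher, and inside the naive-like cluster 1.07 with 6 of 12 higher, where 19.7% of genes were higher. With the clusters at equal weight the median was 0.35. S100a10, Vim and Crip1 had differences over 2 inside both clusters, while Anxa2 was at -0.98 and 0.45, S100a11 at -0.40 and 0.67 and S100a4 at 0.08 and 0.00.

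Of 17 measured residency and homing genes, 9 were higher by 1 or more and none was lower, against 13.5% and 3.15% of all genes, and the median was 1.08. Cxcr6, the receptor for CXCL16, ran up to 3786.72 FPKM in WT cells and up to 4101.85 in cells labelled KO, with medians of 0 and 30.4 FPKM. It was found in 7 of 39 (17.9%, 7.54% to 33.5%) and 27 of 54 cells (50%, 36.1% to 63.9%) and differed by 3.27. The pools overlapped at the top, and the level where found was alike, at medians of 864 and 796 FPKM. Inside the Cxcr6 cluster the difference was 1.59. Rgs1, a regulator of chemokine receptor signalling, differed by 3.22 (19 against 39 cells), the integrin gene Itgb7 by 2.60 (16 against 36) and the inflammatory chemokine receptor gene Ccr2 by 1.54 (4 against 19). Ccr7 differed by -0.94. The median of this list was 1.67 inside the Cxcr6 cluster, with 12 of 17 higher, where 16.1% of all genes were. It was 0.31 inside the naive-like cluster, with 3 of 15 higher and 3 lower, where 19.7% and 11.5% of all genes were. It was 0.46 in cells with Cd4 and no Cd8a.

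The remaining highest genes were Tspo, a mitochondrial membrane protein gene (3.23), Zap70, the kinase that binds the T cell receptor (3.06, 13 of 39 against 38 of 54 cells), Nucb1 (2.98), Cyth4 (2.96), Supt4a (2.85) and the proteasome gene Shfm1 (2.63). All 12 highest genes were above 0 inside the Cxcr6 cluster and inside the naive-like cluster. They were chosen over the same cells, so a shared sign was partly fixed by the choice. Inside the naive-like cluster Itgb7 (0.39), Nucb1 (0.42) and Cxcr6 (0.62) were under 1. Other genes of T cell receptor signalling were mixed: Cd247 (1.91) and Lat (1.83) were higher, while Cd3e (-0.53) was not and Cd5 (-1.17), an inhibitor of the receptor's signal, was lower.

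**Figure D4:**
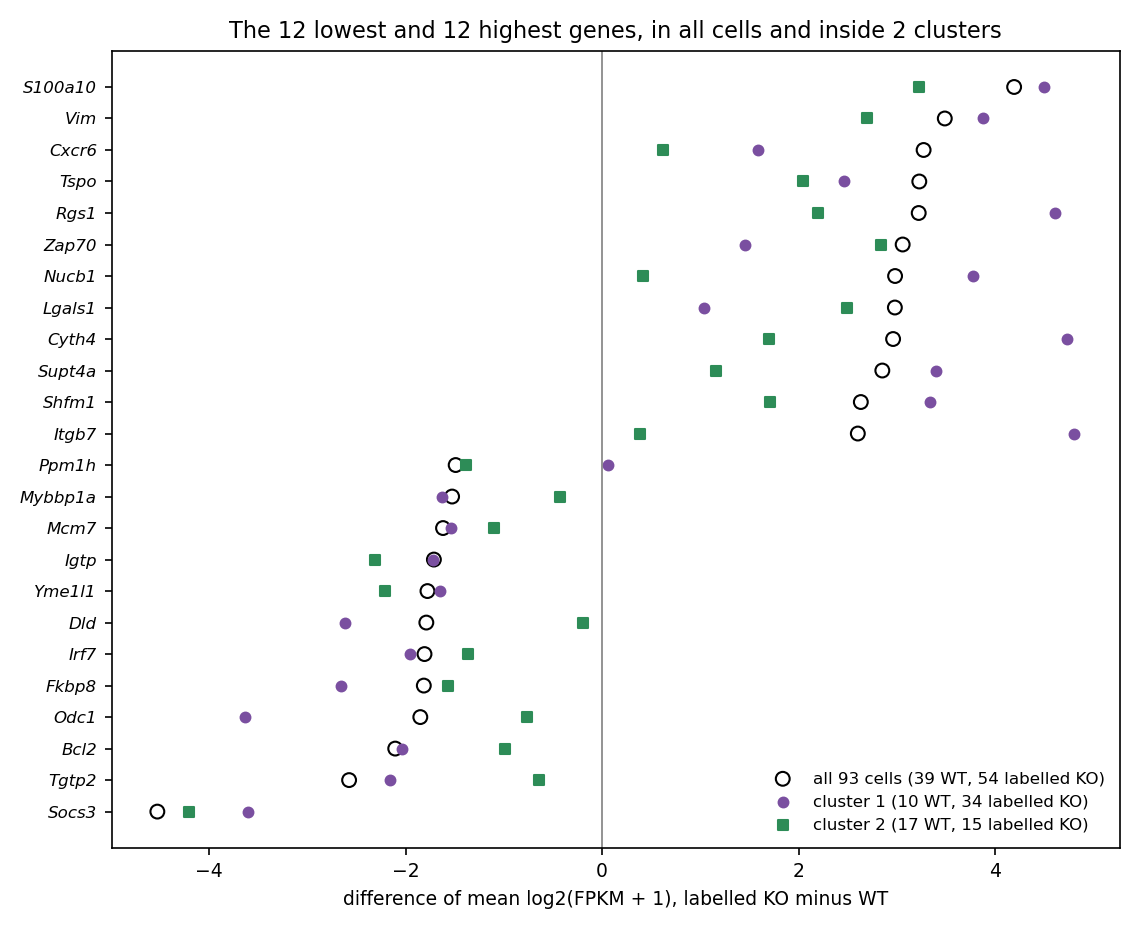
The x axis is the difference of mean log2(FPKM + 1), labelled KO minus WT, for the 12 lowest and 12 highest genes. Open circles are all 93 cells, and filled points the cells of cluster 1 and cluster 2. Socs3 is at -4.53, -3.60 and -4.21, and S100a10 at 4.19, 4.49 and 3.22.

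Genes of the activated state were higher in part. Of 23 measured, 10 were higher by 1 or more and none was lower, against 13.5% and 3.15% of all genes. The median was 0.53. Dusp2, a phosphatase that switches off MAP kinases, differed by 2.38 (5 of 39 against 22 of 54 cells), Nfkbid by 2.27 (13 against 33), Dusp5 by 1.84 (14 against 34), Ier2 by 1.63 (24 against 43) and Nfkbia, which encodes an inhibitor of NF-κB, by 1.62 (30 against 49). Egr1 differed by 1.58 (14 against 30) and Cd69 by 1.13 (17 against 33). Myc (-0.89) and Junb (-0.63) had lower means, and Fos (0.06) and Jun (0.04) were near 0. Inside the clusters the list's median was -0.15 in the Cxcr6 cluster and 0.24 in the naive-like cluster. In the Cxcr6 cluster 8 of 28 were higher and 6 lower, where 16.1% and 19.2% of all genes were. The lower count was near the share of all genes there. Egr1 differed by 3.97 in the Cxcr6 cluster and by -0.93 in the naive-like cluster, and Cd40lg, which differed by 1.28 over all members, by 1.92 and -0.26.

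Tnf was at 0 in all 39 WT cells, which allows a share of up to 7.69% (3 cells of 39), but present in 10 of the 54 labelled KO (18.5%, 9.25% to 31.4%), with a median of 628 FPKM in those 10. It was not among the measured genes because it was found in under 20% of both pools. Il2 was found in no WT cell and in 4 of 54 labelled KO (7.41%, 2.06% to 17.9%). Ifng was found in 3 and 5 cells.

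Type 1 genes had a median of 0.92. Of 16 measured, 7 were higher by 1 or more and none was lower, against 13.5% and 3.15% of all genes. The higher ones were receptors and effectors: Cxcr6, the IL-18 receptor genes Il18rap (1.68, 7 against 25 cells) and Il18r1 (1.63, 15 against 35), Bhlhe40 (1.54), Ccr2, Ccl5 (1.30, 9 against 18) and Ifngr1 (1.12, 33 against 53). The lineage factor Tbx21 (-0.29, 8 against 10 cells) and Stat4 (-0.43), the transducer of IL-12, were not among them. Inside the clusters the list's median was -0.044 in the Cxcr6 cluster and 0.032 in the naive-like cluster, and with the clusters at equal weight it was 0.16. In the Cxcr6 cluster Bhlhe40 was at -1.45 and Nkg7 at -1.11, while Il18rap was at 1.81 and Cxcr3 at 1.71. Without the 2 cells rich in interferon-stimulated genes, the median in that cluster was 0.83.

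Type 2 genes were divided. Gata3 differed by 0.45 (15 of 39 against 26 of 54 cells) and Ccr8 by 1.62 (3 against 14), while Il4ra, the receptor chain of IL-4, differed by -1.35 (18 against 15) and its transducer gene Stat6 by -1.06 (17 against 19). Il1rl1, which encodes the IL-33 receptor ST2, was under 1 FPKM in all 39 WT cells and reached it in 10 of 54 labelled KO (18.5%, 9.25% to 31.4%). Of the type 17 list 2 genes were measured, Rora (1.87, 11 against 25 cells) and Batf (-0.99, 8 against 5). Of the follicular list 7 were measured, with Icos (1.84) and Sh2d1a (1.42) higher and Slamf6 (-1.13) lower. The median of the type 2 list was 0.45 over all members, 0.36 inside the Cxcr6 cluster and -0.84 inside the naive-like cluster. The follicular list was at 0.49, -0.90 and -0.068.

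Of 7 measured co-inhibitory receptors, 1 was higher by 1 or more, a share near the 13.5% of all genes, and none was lower. Their median was -0.39, and it was 1.33 in the 6 WT cells and 16 cells labelled KO with at least 2000 genes. The higher one was Vsir, listed as 4632428N05Rik, which encodes VISTA (1.93, 11 of 39 against 30 of 54 cells). Cd274, which encodes PD-L1 (-0.71), Ctla4 (-0.57), Pdcd1 (-0.54) and Btla (-0.39) had lower means and Tigit was at -0.09. Activation receptors had a median of 1.01 with 6 of 12 higher, among them Cd48 (2.24), Icos (1.84), Slamf1 (1.64), Cd28 (1.45), Tnfrsf18 (1.19) and Tnfrsf4 (1.16), and 1 lower, the memory marker Cd44 (-1.16, 24 against 25 cells). Inside the Cxcr6 cluster the co-inhibitory median was -0.82 and the activation receptor median 0.50, and inside the naive-like cluster they were -0.12 and 0.10.

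Naive-like genes had a median of -0.19. None of 13 was higher and 2 were lower, against 13.5% and 3.15% of all genes. The lower ones were Bcl2 and Tcf7 (-1.04, 23 of 39 against 26 of 54 cells). The median was 0.17 among genes found in at least 50% of either pool and 0.076 without the cells with 3 or more regulatory T cell genes. Lef1 (0.32), Foxp1 (0.36) and S1pr1 (0.43), the receptor for exit from tissue, were above 0. Inside the naive-like cluster the median was 0.54, with Ltb (3.17), Cd27 (2.91) and Ccr7 (1.75) highest and Tcf7 lowest at -1.65.

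Among lists outside the T cell states, glycolysis genes had a median of 0.55 with 5 of 13 higher (13.5% of all genes were), led by Pgam1 (1.75), Eno1 (1.72) and Ldha (1.67). Their median was -0.75 inside the Cxcr6 cluster and 0.89 inside the naive-like cluster, and -1.15 over the cells with at least 2000 genes. Ribosomal protein genes were near the median of all genes, at 0.26 with 3 of 26 higher. Cell cycle genes had a median of -0.29 over all members and -0.72 and -0.089 inside the 2 clusters, and the proliferation marker Mki67 was found in 1 WT cell and 6 cells labelled KO.

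**Figure D5:**
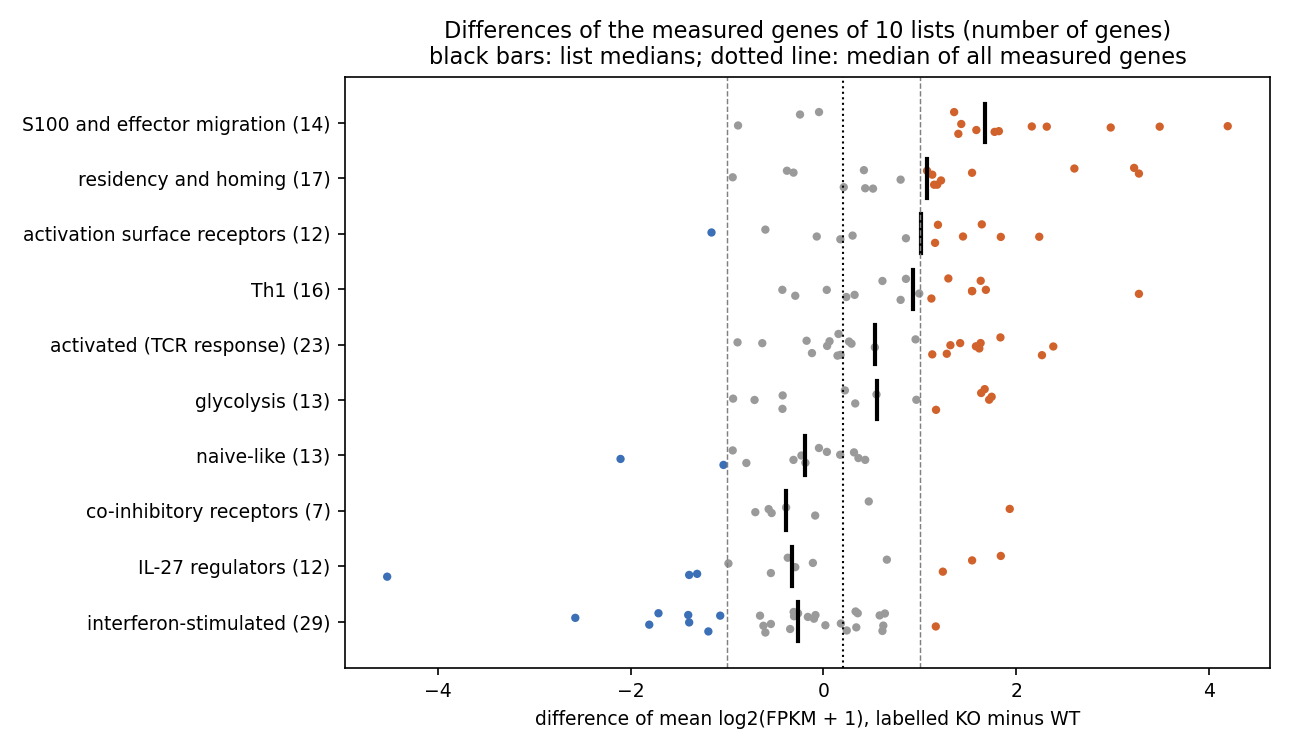
Each point is 1 measured gene of the list named at the left. The x axis is the difference of mean log2(FPKM + 1), labelled KO minus WT, black bars are list medians, dashed lines mark -1 and 1, and the dotted line marks the median of all genes, 0.21. The S100 and migration list lies highest, with a median of 1.68, and Socs3 is the lowest point, at -4.53.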

How the data were processed

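Gene-level FPKM values of single cells, deposited by the authors as 1 table, were used. The submitters' processing notes name Bowtie, RSEM and mm10, and the labels name TMM normalization. Versions are not given in the sources used here. Of the table, 4 columns named Population were not used, 4 lines whose gene symbol occurs more than once were dropped, and 23362 genes remained. Read depth per cell is unknown, and detected genes (1 FPKM or above) stand in for it. Smart-seq2 does not mark strand, so reads of overlapping genes cannot be told apart.

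Differences are of mean log2(FPKM + 1), labelled KO minus WT. They understate changes of low genes. With 1 pool per genotype no count model and no test applied, and an absolute difference of 1 or more is called higher or lower. Clustering used 2000 variable genes, 20 principal components, 15 neighbours and the Leiden algorithm at resolution 1 (leidenalg 0.10.2, scikit-learn 1.9.0, Python 3.11.15). The code for clusters and differences was run on simulated cells with planted shifts. These cells were drawn without differences in depth, so the runs do not show how depth affects the results. Gene positions are from GENCODE (GRCm38), promoters from RefSeq.

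Named genes were the 4 markers, Foxp3 and Il27ra, the 12 highest and 12 lowest differences, 8 leading genes per cluster found in at least 50% of its cells, list members with the largest differences, and helper factors and cytokines. Other genes are named from the lists after their values were seen. The members, the 32 lists and the motifs were chosen with earlier results of these data known. The lists held 456 genes, of which 446 were in the table, 5 by an older symbol. 13 other settings for the pool comparison, 4 for the clusters and 2 for detection, and 5 more chosen after seeing the data, are given at the end. No doublet caller was run. Some listed genes are not reported here.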

Additional observations from a re-analysis of the deposited data

How the results depend on the processing

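Differences within 0.5 (log2) of the reported ones, and counts and shares within 1.5 times, were counted as the same. A reported difference of 1 or more also had to keep its direction, while a smaller one could change sign and still count as the same. Leaving out replicates was impossible, because each genotype was 1 pool. No paired analysis was possible because the titles pair no cells between the pools. Over the 13 settings chosen at the outset Socs3 ranged from -6.05 to -2.94 and S100a10 from 1.90 to 5.65.

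The shares of measured genes higher and lower, 13.5% and 3.15%, became 25.6% and 8.03% with a pseudocount of 0.1, 3.47% and 0.438% with 10, 8.02% and 1.88% among genes in at least 10% of either pool, 23.7% and 2.93% among genes in at least 50%, and 3.95% and 0.928% with no such filter. They were 20.7% and 31.2% in the 6 WT cells and 16 cells labelled KO with at least 2000 genes, and 7.30% and 7.03% with cells weighted by detected genes. Lower genes were 2.09% with no minimum of genes per cell, 5.44% without cells with 3 or more regulatory T cell genes and 4.74% with cells rescaled to a common sum. The settings chosen after seeing the data gave 16.1% and 19.2% in cluster 1 (16.8% and 21.5% without the 2 cells with the most interferon-stimulated genes), 19.7% and 11.5% in cluster 2, and 10.5% and 7.24% with clusters at equal weight.

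List medians moved as follows. Among genes in at least 50% of either pool, the activated list was at 1.13, type 1 at 1.54 and interferon-stimulated at 0.33. With at least 2000 genes per cell the activated list was at 1.04, type 1 at 1.80 and IL-27 regulators at 0.37. The S100 list was at 2.32 with a pseudocount of 0.1. In cluster 2 the naive-like list was at 0.54, type 1 at 0.032 and S100 at 1.07. In cluster 1 the activated list was at -0.15, type 1 at -0.044, interferon-stimulated at -0.95, IL-27 regulators at -1.09 and S100 at 0.87. There, without the 2 cells, the activated list was at -0.034, IL-27 regulators at -0.83 and S100 at 0.78. With clusters at equal weight type 1 was at 0.16 and S100 at 0.35. IL-27 regulators were at 0.14 without cells with markers of another type. Other lists moved too. With at least 2000 genes per cell co-inhibitory receptors were at 1.33, glycolysis at -1.15, the IL-27 receptor pathway at 0.32, the follicular list at -0.68 and ribosomal genes at -0.25. Among genes in at least 50% of either pool activation receptors were at 0.30 and the IL-27 receptor pathway at -1.35. Residency genes were at 0.46 in cells with Cd4 and no Cd8a, and type 2 genes at -0.17 with cells weighted by detected genes.

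Single genes followed over all settings were the 12 highest, the 12 lowest, the 4 markers and Il27ra. Among those with a difference of 1 or more, direction turned for Ppm1h in cluster 1 (0.061, and 0.248 without those 2 cells) and Shfm1 with at least 2000 genes per cell (-1.38). It also turned for Cd40lg (-0.26) and Egr1 (-0.93) in cluster 2. Of those under 1, Il27ra turned to 2.84 with at least 2000 genes per cell, and Cd4 to 0.22 with no minimum of genes and to 0.79 in cluster 1. Genes outside this set, such as Bhlhe40 in cluster 1, turned as well. Resolution 1.5 gave 7 clusters, with 17 of the 32 naive-like and 29 of the 44 Cxcr6 cells in the best matching ones, and 10 components kept 25 and 21. The causes were not tested.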
